A study of Homo sapiens with 3 samples.

Results

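Genes of the Ensembl class processed transcript were followed in a map of the RNA recovered with CTCF, the zinc-finger protein that anchors chromatin loops. Ensembl gives this class to genes whose transcripts have no open reading frame and fit no narrower non-coding class. Of 17201 listed genes, 351 carried it. After 13 were left out by name (GAS5, PVT1, DUXAP8 and 10 SNHG genes), 338 remained. The symbols came from a table of Ensembl identifiers that held 276 of the 338 identifiers, and 145 of the 338 had a gene symbol. The other 193 are called here by their identifier. A left-out gene, or a known coding gene, among the 62 with no entry would not have been recognised. Of the 338 intervals, 87 overlapped no other listed interval and 251 overlapped at least 1.

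The study mapped RNA bound by CTCF in U2OS, a human osteosarcoma cell line, by PAR-CLIP. Cells took up 400 µM 4-thiouridine for 16 to 24 h, and light of 365 nm then crosslinked this uridine analogue to protein touching the RNA. CTCF was precipitated from nuclear lysate with 1 antibody in a different lot for each of 2 biological replicates. The remaining sample merges the data of both, and its counts are the ones analysed here, with no value per replicate and no control precipitation. None of the values below therefore has a replicate error or a test, and none is set against how much of each RNA the nucleus held. Counts come from a bulk culture, in which more cells with an RNA and more RNA per cell cannot be told apart. Of 8 osteosarcoma and mesenchymal markers 7 were listed (8 to 1277 counts; COL1A2 was absent), and of 4 epithelial markers 3 were listed (13 to 206 counts, EPCAM absent). None (0) of 4 blood and none (0) of 2 liver markers was listed. A gene enters the table at 6 counts, so absence is not a count of 0.

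Long non-coding RNAs often stay in the nucleus near the gene that makes them. CTCF, best known for binding DNA, also contacts RNA through some of its zinc fingers, and several non-coding genes lie at or beside sites where it shapes chromatin. The class holds unlike things: hosts of small RNAs, antisense transcripts, transcripts that start back to back with a coding gene, and readthrough transcripts that join neighbouring genes. Some are no longer held to be non-coding. Of the 338, 144 were found in RefSeq by symbol and chromosome. RefSeq calls 104 of these lncRNA, 21 protein-coding, 15 transcribed pseudogenes, 2 pseudogenes and 2 snoRNA.

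Sequences are shown for what the counted genes carry. DLEU2 hosts miR-15a and miR-16-1, which are lost with it in chronic lymphocytic leukaemia. MIR17HG hosts the growth-promoting miR-17 to miR-92a cluster, and MIR3936HG is named for miR-3936. The mature miRNAs below are from RefSeq, written 5′ to 3′, and the capitals mark the seed (bases 2 to 8), the part that pairs with targets.
miR-15a-5p: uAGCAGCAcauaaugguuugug
miR-16-5p: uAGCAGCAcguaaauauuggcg
miR-17-5p: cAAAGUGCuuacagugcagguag
miR-20a-5p: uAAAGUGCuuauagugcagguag
miR-18a-5p: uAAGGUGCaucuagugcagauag
miR-19a-3p: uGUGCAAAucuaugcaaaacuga
miR-19b-3p: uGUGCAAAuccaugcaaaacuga
miR-92a-3p: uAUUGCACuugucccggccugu
miR-3936: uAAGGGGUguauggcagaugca
The 9 miRNAs have 6 seeds. The pair from DLEU2 shares 1 seed, miR-17-5p and miR-20a-5p share another, and so do miR-19a-3p and miR-19b-3p. None (0) of their 9 miRNA genes was listed as a gene of its own.

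RefSeq start regions in build GRCh38.p14 were found for 93 of the 338 genes (117 starts). Those of the 4 highest genes without overlap that had one are shown as the annotated 5′ ends of counted genes. Where RefSeq gives several starts the most upstream is shown, and it was not matched by position to the counted interval, which is in hg19. The 250 bases before the start are in lower case and the 50 transcribed bases in capitals. Each T there is a uridine in the RNA, the base that 4-thiouridine replaces.
LINC-PINT: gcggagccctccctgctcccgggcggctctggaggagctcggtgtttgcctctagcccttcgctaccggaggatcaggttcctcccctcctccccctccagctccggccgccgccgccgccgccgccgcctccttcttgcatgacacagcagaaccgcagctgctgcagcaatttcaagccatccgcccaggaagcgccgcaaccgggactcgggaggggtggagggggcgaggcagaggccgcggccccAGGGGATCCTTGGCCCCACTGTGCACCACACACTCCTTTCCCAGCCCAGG
LINC02762: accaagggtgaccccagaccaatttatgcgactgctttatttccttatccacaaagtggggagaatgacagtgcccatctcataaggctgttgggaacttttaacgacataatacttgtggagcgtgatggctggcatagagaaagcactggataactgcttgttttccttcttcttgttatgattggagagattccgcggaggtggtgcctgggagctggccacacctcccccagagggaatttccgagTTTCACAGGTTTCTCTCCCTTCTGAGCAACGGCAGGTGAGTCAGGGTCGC
ZNF518A: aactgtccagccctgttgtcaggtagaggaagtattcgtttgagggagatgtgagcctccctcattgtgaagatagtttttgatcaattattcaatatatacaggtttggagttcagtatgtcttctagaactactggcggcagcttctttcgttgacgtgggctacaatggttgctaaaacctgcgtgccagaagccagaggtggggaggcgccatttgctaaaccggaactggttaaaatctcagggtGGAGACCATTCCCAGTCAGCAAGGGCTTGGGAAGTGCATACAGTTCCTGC
NBDY: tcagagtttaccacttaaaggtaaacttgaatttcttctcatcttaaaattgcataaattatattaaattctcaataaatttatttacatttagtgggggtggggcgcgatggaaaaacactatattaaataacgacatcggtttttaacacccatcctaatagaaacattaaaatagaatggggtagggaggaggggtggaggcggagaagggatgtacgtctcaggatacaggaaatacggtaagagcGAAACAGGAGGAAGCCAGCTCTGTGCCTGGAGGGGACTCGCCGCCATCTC
The 50 transcribed bases held 9 T in LINC-PINT, 14 in LINC02762, 10 in ZNF518A and 7 in NBDY. The whole 300-base windows lie at chr7:131109876-131110175 (minus strand), chr11:112270499-112270798 (plus), chr10:96129465-96129764 (plus) and chrX:56728993-56729292 (plus). The 12-base core of the CTCF motif, searched on both strands, was found in 0 of the 117 start regions and in 165 of all 35116 (0.470%). This says only that these letters are not in those windows.

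The class as a whole had low to middling counts, and the genes without overlap were lower. The 338 genes had a median of 27 counts (quartiles 11 and 69, range 6 to 825), against 31 over all listed genes. The 251 overlapping genes had a median of 31 and the 87 others a median of 15 (quartiles 8 and 38, range 6 to 423). In counts per kb of interval the medians were 1.24 and 0.757, and 1.15 for all 338. Together the class summed to 20154 counts, 1.52% of the 1322047 counts in the table. Counts of overlapping genes share reads, so this is not a share of the RNA.

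A count of 100 or more was reached by 51 of the 338 (15.1%, 95% Clopper-Pearson interval 11.4 to 19.4%), where 20.5% of all listed genes did. Without overlap it was 8 of 87 (9.20%, 4.05 to 17.3%), where 19.5% of listed genes without overlap did. Among overlapping genes it was 43 of 251 (17.1%, 12.7 to 22.4%), where 22.0% of overlapping listed genes did. These intervals treat genes as independent draws and do not cover variation between cultures. At the other end, 68 of the 338 (20.1%) had fewer than 10 counts, where 16.0% of all listed genes did. The lowest count of 6 was held by 15 of the 338 and by 874 of all 17201 listed genes.

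**Figure D1:**
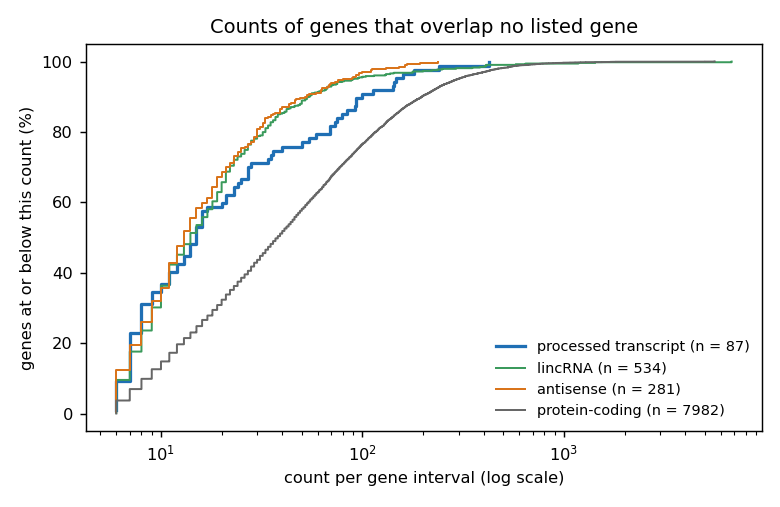
Cumulative share of genes (%, y axis) at or below each count (x axis, log scale), for genes that overlap no listed gene in 4 Ensembl classes. The processed transcript curve starts near those of lincRNA and antisense genes and runs below them around 100 counts, a level that 9.20% of its genes reached.

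Beside other non-coding classes without overlap, processed transcript genes had a similar median count and a higher upper quartile. The medians were 15 for processed transcript genes, 14 for 534 lincRNA genes and 13 for 281 antisense genes, and 38 for 7982 protein-coding genes. The upper quartile was 38 counts for processed transcripts, 26.8 for lincRNA and 25 for antisense genes. The share at 100 counts or more was 9.20%, 4.49% and 3.20%, with intervals of 4.05 to 17.3%, 2.90 to 6.61% and 1.47 to 5.99%, so that the first overlaps both others. The median interval was 31.8 kb, 28.5 kb and 11.5 kb. When each gene was set against the genes of similar length in 20 length groups, 26 of 87 processed transcripts (29.9%, 20.5 to 40.6%) lay above the median of their group. Of all listed genes without overlap 49.3% did, of the lincRNA genes 20.6% (17.2 to 24.3%) and of the antisense genes 26.3% (21.3 to 31.9%). The median percentile within the length group was lower in processed transcripts, at 22.8, than in lincRNA (25) and antisense genes (27.4). No test of these differences was possible with 1 merged sample. Genes were left out by name only from the processed transcripts. This removed 6 genes without overlap, with a median of 140 counts, of which 5 had 100 or more. Of the 87 that stayed, RefSeq calls 8 protein-coding, but 36 were not matched in RefSeq, so more may be coding.

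Longer intervals held more counts, with a wide scatter. Across the 338 genes, which are not replicates and partly share reads, Spearman's rho between count and length was 0.43. Over all listed genes it was 0.46. Without overlap it was 0.23 over the 87 genes, 0.41 over all listed genes, 0.16 over lincRNA and 0.064 over antisense genes. The longest, ENSG00000260411 on chromosome 16, spanned 1536 kb with 58 counts and overlaps RBFOX1, a splicing regulator, with 52. The shortest were SNORD56 and SNORD57, snoRNAs of 0.071 and 0.072 kb inside NOP56.

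**Figure D2:**
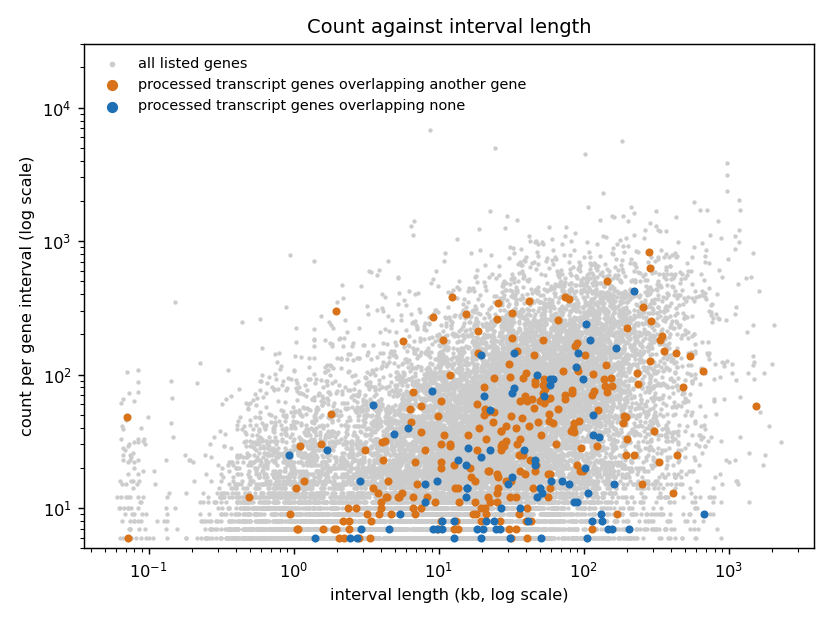
Count (y axis, log scale) against interval length in kb (x axis, log scale) for all listed genes (grey), the 251 overlapping processed transcript genes (orange) and the 87 without overlap (blue). Orange points reach 825 counts, while 8 of the blue points reach 100 counts or more.

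Among genes without overlap, whose counts are shared with no listed gene, EPIC1 stood first. This long non-coding gene, linked to MYC in cancer, had 423 counts (95% Poisson interval 384 to 465) over 224 kb of chromosome 22 (48027423 to 48251349). APCDD1L-DT, a divergent transcript beside APCDD1L, followed with 239 (210 to 271) on chromosome 20 (57090435 to 57194944). LINC01399 came next with 180 counts (155 to 208) on chromosome 22. The intervals of these 3 genes do not overlap.

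The next places belonged to regulatory RNAs and to genes now known to be coding, and their order is not resolved. LINC-PINT, a p53-induced RNA, had 159 counts (135 to 186) on chromosome 7 (130626519 to 130792822). LINC02762 had 146 on chromosome 11 and ZNF518A, a zinc-finger gene, 144 on chromosome 10. NBDY, the former non-coding gene of a microprotein in P-bodies, had 113 (93.1 to 136). The Poisson intervals of LINC01399, LINC-PINT, LINC02762 and ZNF518A all overlap one another. The 10 highest of the 87 held 50.4% of their summed count of 3446.

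Of the 20 highest, 12 had 54 to 99 counts. DLEU2 and MIATNB, the neighbour of the MIAT gene, each had 93 (75.1 to 114). CASP8AP2, for a protein of histone RNA processing, had 79 and JRK, for a DNA-binding protein, 75. DANT2, transcribed beside the CTCF-binding DXZ4 repeat of the X chromosome, had 69 (53.7 to 87.3). LINC01128 had 73, FLJ46284 84 and PITRM1-AS1 54. The 4 for which no symbol was found were ENSG00000255090 with 99, ENSG00000034063 with 92, ENSG00000223380 with 69 and ENSG00000250899 with 59. Of these, ENSG00000255090, ENSG00000034063 and ENSG00000223380 had no entry in the name table. Whether they carry a symbol elsewhere or code for protein was not checked. FIRRE, another X-linked RNA gene whose locus binds CTCF, was singled out after its value was seen and had 34 counts (23.5 to 47.5) over 128 kb, less than DANT2 by non-overlapping intervals.

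**Figure D3:**
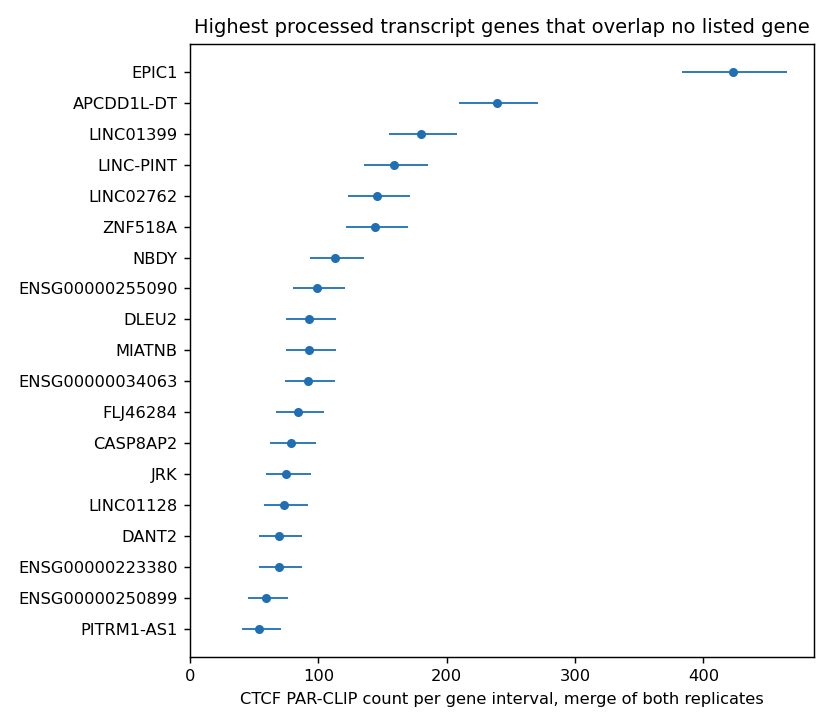
Counts (x axis) of 19 of the 20 highest processed transcript genes that overlap no listed gene, with 95% Poisson intervals as bars. EPIC1 at 423 and APCDD1L-DT at 239 stand to the right of the rest, which run from 54 to 180.

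Per kb the order changed, and short genes led. ENSG00000267317 on chromosome 19 had 27.0 counts per kb from 25 counts over 0.927 kb. ENSG00000250899 had 16.8 per kb over 3.51 kb of chromosome 12. DANCR, an RNA that holds back differentiation, had 15.8 per kb from 27 counts (17.8 to 39.3) over 1.71 kb of chromosome 4. JRK had 8.27 and ENSG00000206028 7.26 per kb. EPIC1, highest by count, had 1.89 per kb.

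A few known host transcripts of small RNAs and RNAs of growth control were members, beside GAS5, PVT1 and the SNHG genes that the choice of members left out. Of 30 miRNA hosts in the list used, 21 were listed under any class, with a median of 33 counts. Of these, 4 were members, with a median of 80 counts: LINC-PINT (159), DLEU2 (93), MIR3936HG (67) and MIR17HG (7). MIR3936HG overlaps the transporter genes SLC22A4 (69 counts) and SLC22A5 (73), so its own counts cannot be told apart from theirs. MIR17HG, over 4.58 kb of chromosome 13 (92000074 to 92004656), lay near the floor (2.81 to 14.4), as did the p53 target TP53TG1 with 7. Of 28 tumour and growth control RNAs 14 were listed and 4 were members, LINC00467 (14 counts) among them. DANCR (27) and RMST (8), a neural RNA, were the 2 members among 9 further hosts. No member (0) came from the X-inactivation centre list of 4 or the imprinted list of 12, of which 2 each were listed under other classes. LINC-PINT and DLEU2 stand on both the host and the growth control list.

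Long genes also stood at the floor. The longest with 6 counts (2.20 to 13.1) was ENSG00000204466, over 105 kb of the X chromosome. LINC01278, also on X, followed at 51.1 kb, then ENSG00000267827 on chromosome 19, ENSG00000267072 on chromosome 16 and UBXN8, for a ubiquitin-pathway protein, on chromosome 8. PTCHD1-AS, singled out after its value was seen, had 9 counts over 675 kb, or 0.0133 per kb.

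Most members share their ground with a coding gene, so that a count may belong to either. Of the 338, 74.3% overlapped another listed interval (69.3 to 78.8%), against 40.8% of all listed genes. The share was 80.3% for antisense genes, 38.3% for lincRNA genes and 34.7% for protein-coding genes. Of the 251, 190 overlapped a protein-coding gene, 55 lay wholly inside another gene, 33 only contained other genes and 163 overlapped in part. The median share of an overlapping interval covered by other genes was 65.4%, and 25 overlapped another member. In 158 pairs with a member in which one interval lay inside the other, the inner count was above the outer count in 0. Over all listed genes it was so in 0 of 2435 nested pairs. This is what counting over whole intervals without regard to strand would give.

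Because a read in a shared stretch would then enter both counts, a member's count minus the summed counts of all genes it overlaps is the least that came from its own ground. This bound was above 0 for 67 of the 251, at least 10 for 40 and at least 100 for 5. It was not computed for overlapping genes of other classes, so whether these numbers are particular to the members is not known. ZFPM2-AS1, named for the gene of a GATA cofactor, had the highest count of the class, 825 (770 to 883), over 280 kb of chromosome 8 (106792474 to 107072752). Its partners were ZFPM2 with 335 counts and a lincRNA with 14, so at least 476 counts lay outside both. The other 4 were ENSG00000267243 on chromosome 19 (253 counts, at least 137 of its own), ENSG00000243797 on chromosome 7 (150, at least 127), ENSG00000255906 on chromosome 12 (182, at least 124) and EOLA2-DT on the X chromosome (127, at least 106). LINC00513, on chromosome 7 beside LINC-PINT, had 380 counts, of which 288 can be those of ENSG00000226380 inside it and at least 92 are not.

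**Figure D4:**
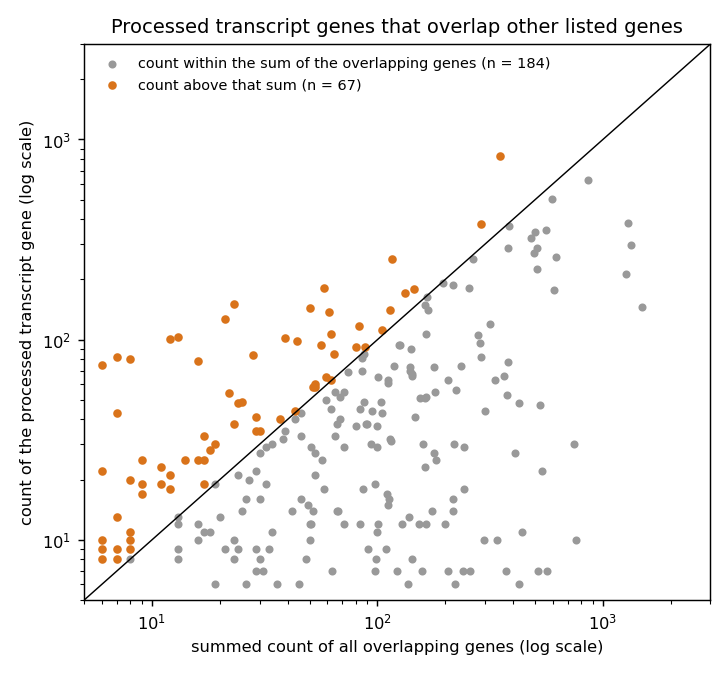
Count of each of the 251 overlapping processed transcript genes (y axis, log scale) against the summed count of all genes it overlaps (x axis, log scale), with the line of equality. The 67 orange points above the line have more counts than their partners can share, and ZFPM2-AS1 at 825 is the highest of them.

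For most of the highest overlapping members the bound was 0, and the partner had a count of the same order. ENSG00000214955 on chromosome 21 had 628 counts, with the mitochondrial ribosomal gene MRPS6 at 472 and the inositol transporter gene SLC5A3 at 384. ENSG00000266049 on chromosome 18 had 505 beside 594 in SMCHD1, a chromatin protein of X inactivation. FLNC-AS1 had 382 counts over 12.5 kb of chromosome 7 and overlaps FLNC, for the actin crosslinker filamin C, with 1262. ENSG00000265257 had 369 and its partner NDUFV2, a respiratory chain subunit, 266. ENSG00000258964 had 354 beside SNAPC1 (455), which serves snRNA transcription, and ENSG00000257379 had 346 beside the RNA-binding protein gene PCBP2 (473).

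The remaining high members repeat the pattern. ENSG00000261553 had 321 counts beside LMO7 (380). ENSG00000265500 (286) and ENSG00000264772 (271) overlap each other and the translation helicase gene EIF4A1 (168). ENSG00000255896 (260) covers EMG1 (177), a ribosome assembly gene, in large part. ENSG00000267411 (254) contains the proteasome assembly gene PSMG2 (171). None of the 5 had counts beyond the sum of its partners. Per kb, SNORD56 was highest with 676 from 48 counts (35.4 to 63.6) over its 0.071 kb, and SNORD57 had 83.3 per kb from 6. EMG1 had 30.9 and FLNC-AS1 30.6 per kb.

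A member wholly inside another gene can be compared with the rest of that gene, as counts per kb within and around it. For 54 of the 55 this ratio could be formed. Its median was 1.68 (quartiles 0.763 and 5.39). The exact 95% interval from the counts lay above 1 for 23, below 1 for 11 and on both sides of it for 20. These intervals cover counting error only. A gene is listed only from 6 counts, so short and sparse inner genes are missing, which can raise the median ratio and the number above 1. The ratio was not formed for nested genes of other classes. By this ratio the members are unlike each other, from dense spots in a sparse gene to sparse stretches in a dense one. Exon and intron positions were not at hand, so whether the ratios follow them was not tested.

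The 5 members with the highest ratios held most of the outer gene's counts, in intervals from 10.5% to 67.3% of its length. ENSG00000241728 held 29 of the 32 counts of CFAP410, a cilia gene, in 10.5% of the length, a ratio of 82.0 (25.4 to 421). TPTE2P2 held 27 of 29 counts of ENSG00000217576, a ratio of 49.0 (12.3 to 425), and contains the pseudogene MRPS31P5 with 24. ENSG00000259546 held 73 of the 78 counts of CEMIP, for a hyaluronan-binding protein, with a ratio of 33.2 (13.6 to 105), but it also overlaps MESD, with 95. RBFADN held 63 of the 64 counts of ENSG00000267127 (ratio 30.6, 5.29 to 1226) in 67.3% of the length, and it also overlaps RBFA, with 47. TRPM2-AS, opposite the cation channel gene TRPM2, held 181 of its 256 counts in 10.7 of 92.9 kb, which gives 18.6 (14.1 to 24.7).

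Other dense spots lay in well-known genes. ENSG00000257181 had 297 of the 869 counts of MDM2, the p53 ubiquitin ligase, in 1.95 of 37.3 kb of chromosome 12 (69235068 to 69237017), a ratio of 9.40 (8.14 to 10.8). It contains a pseudogene with 246 counts over 0.439 kb, and reads of a pseudogene and its parent could be placed at either copy. It also overlaps CPM, a carboxypeptidase gene with 221 counts, over 1.04 kb. SNORD56 held 48 of the 425 counts of NOP56, a snoRNP protein gene, with a ratio of 11.1 (8.03 to 14.99), whereas the neighbouring SNORD57 had 1.23 (0.448 to 2.70).

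The sparsest stretch was ENSG00000225806 in GNAS, the gene of the stimulatory G protein. It covers 25.3 of 71.5 kb but had 11 of 439 counts, a ratio of 0.0470 (0.0233 to 0.0850). ENSG00000243637 had 47 of the 526 counts of DGKD, a lipid kinase gene (0.207, 0.150 to 0.280). MAPRE3-AS1 had 16 of the 67 counts of MAPRE3, for a microtubule end-binding protein (0.294, 0.157 to 0.524). ENSG00000105663 had 14 of 175 in KMT2B, a histone methyltransferase gene (0.430, 0.230 to 0.742), and ENSG00000233783 10 of 763 in APP, the amyloid precursor gene (0.497, 0.237 to 0.918).

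**Figure D5:**
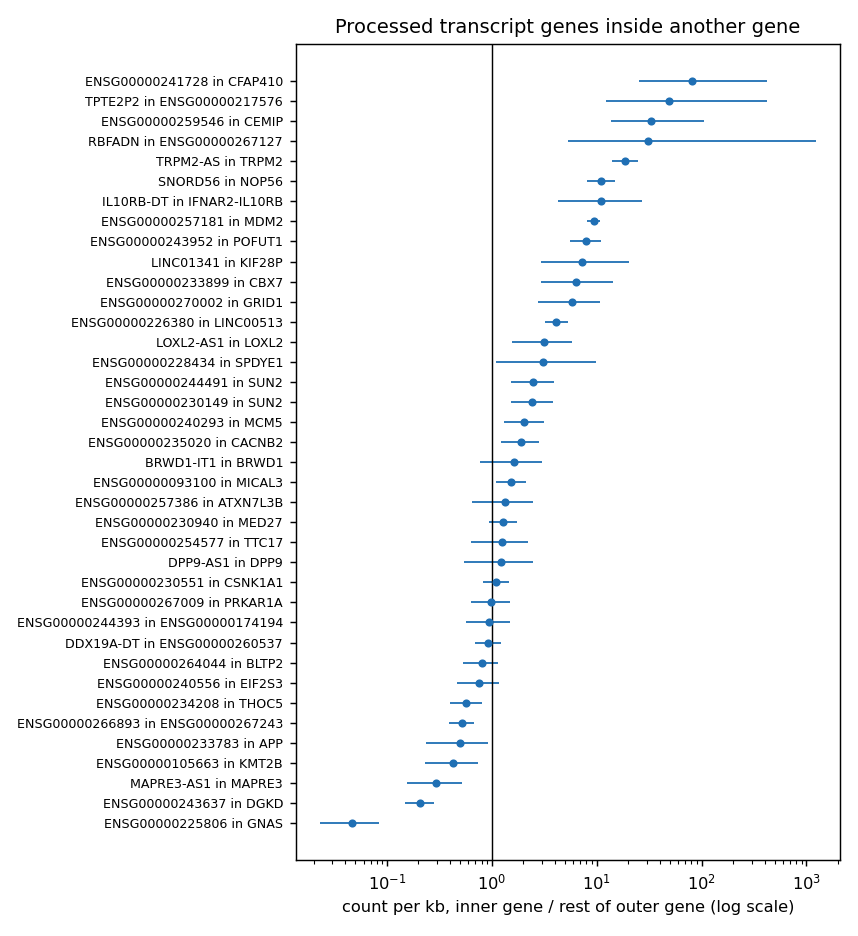
Ratio of counts per kb in the inner processed transcript gene to those in the rest of the outer gene (x axis, log scale), for the 38 with 10 counts or more, with exact 95% intervals as bars and a line at 1. The ratios run from 0.0470 in GNAS to 82.0 in CFAP410.

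Antisense and divergent names allow a count to be set beside that of the gene of the same name. For each namesake the longest listed interval was used, and whether it spans the whole gene was not checked. Of 46 members named as antisense, 27 overlapped their namesake, 8 had a listed namesake that they did not overlap, 9 had one that was not listed and 2 a name not in the table. Of 10 named as divergent, 1 overlapped its namesake and 9 did not. Counting also 1 intronic and 1 overlapping transcript name, 30 pairs overlapped, with medians of 19.5 counts in the member and 91.5 in the namesake, and the member was higher in 8. Per kb the member was higher in 15 of these 30.

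In the 17 pairs without overlap, the listed intervals of member and namesake share no base, though either may overlap other listed genes. The member was higher in 5, with medians of 18 and 37. APCDD1L-DT had 239 counts and APCDD1L, for a Wnt pathway protein, 56, and per kb of interval 2.29 and 1.00. PITRM1-AS1 had 54 (40.6 to 70.5) and the listed interval of PITRM1, a mitochondrial peptidase gene, 15, with 2.39 and 16.9 per kb. That PITRM1 interval is short, so neither order need hold for the whole gene. EOLA2-DT had 127 and EOLA2 10, with 0.444 and 1.12 per kb. TTC21B-AS1 had 28 and the listed interval of TTC21B, a cilia gene, 14.

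The other 7 divergent transcripts that did not overlap their namesake had 3.73% to 41.7% of their pair's counts. NUP50-DT had 15 counts and NUP50, for a nuclear pore protein, 387. GARS1-DT had 21 and the glycyl-tRNA synthetase gene GARS1 276. ZRANB2-DT had 7 and ZRANB2, for a splicing protein, 137. DDX19A-DT had 96 and the RNA helicase gene DDX19A 172, while NUDT16-DT had 18 and NUDT16 38. ANKRD42-DT had 12 counts and ANKRD42 22, and IL10RB-DT had 10 and the cytokine receptor gene IL10RB 14. In the ANKRD42 and IL10RB pairs the order turned per kb, at 1.82 and 1.03 for ANKRD42-DT and 4.19 and 0.453 for IL10RB-DT. But ANKRD42-DT overlaps PCF11 (173 counts) and IL10RB-DT lies inside IFNAR2-IL10RB (23), so their counts may belong to those genes. Likewise DDX19A-DT lies inside ENSG00000260537 (216) and NUDT16-DT overlaps NEK11 (86). Per kb the member was higher in 5 of the 17 pairs.

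Readthrough members, whose symbols join the names of genes that are each in the name table, numbered 12, with a median of 63 counts and a range of 22 to 172. All 12 overlapped a listed gene. SYNJ2BP-COX16 had 172 counts (147 to 200), while SYNJ2BP, for an outer mitochondrial membrane protein, had 96 and COX16, for an assembly factor of cytochrome oxidase, 36. At least 40 counts thus lay outside both. DNAAF4-CCPG1 had 117, with 21 in DNAAF4 and 38 in CCPG1, and at least 34 of its own after PIGB (24) was also taken off. LINC02210-CRHR1 had 48, of which at least 24 lay outside LINC02210, while CRHR1, a stress hormone receptor gene, was not listed. TEN1-CDK3 had 38 counts and a bound of 0.

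The members were spread unevenly over the chromosomes. Chromosome 7 held 37 (10.9% of members, 4.90% of all listed genes), chromosome 22 held 27 (7.99% and 2.38%) and the X chromosome 25 (7.40% and 3.58%). On chromosome 21, 14 of 193 listed genes were members (4.14% and 1.12%). Chromosome 1, with 1680 listed genes, had 16 (4.73% and 9.77%). Processed transcript genes that were not listed were not counted, so whether the spread follows the Ensembl annotation was not tested. The median count of members was 25 on chromosome 7, 31 on chromosome 22 and 13 on X.

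Neighbouring members could differ widely. On chromosome 22, MIAT, a neural and retinal RNA gene, had 6 counts over 19.5 kb and ENSG00000206028 had 36 (25.2 to 49.8) after a gap of 1.81 kb. MIATNB began 0.112 kb further on and had 93 counts over 61.7 kb. Per kb the values were 0.308, 7.26 and 1.51. On chromosome 7, LINC00513, with ENSG00000226380 inside it, and LINC-PINT are neighbours, and LINC-PINT begins 28.4 kb after ENSG00000226380 ends. They had 5.07, 8.91 and 0.956 counts per kb.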

How the data were processed

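The samples are 2 PAR-CLIP replicates and their merge. The authors deposited, for the merge, 1 whole-number count per Ensembl gene interval, not scaled for depth or length. Bowtie, bedtools and build hg19 are named, without versions, per the submitters' processing notes. What was counted, strand use and how reads with several positions were handled: not given in the sources used here. Listed genes run from 6 to 6801 counts, and their sum of 1322047 is not the library size.

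Lengths were taken as end minus start plus 1, and an overlap was 1 base or more, strand ignored. Intervals on counts are exact Poisson and those on shares exact Clopper-Pearson (95%), from SciPy 1.17.1. They cover counting error only, and PCR copies are not independent molecules. Interval and density code was tested on simulated data. Named genes are the 20 highest by count and 5 highest per kb without overlap, the 15 and 5 highest with overlap, the 5 longest at the lowest count, the 5 highest and 5 lowest ratios among nested members with 10 counts or more, and every member on 5 gene lists. A gene that this rule names is not reported here. Others are examples chosen after their values were seen, as are the namesake, readthrough, own-count and neighbour comparisons. The members and lists were chosen with earlier results of these data known. Alternatives were a minimum of 10 counts, no overlap, counts per kb and the left-out names kept.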

Additional observations from a re-analysis of the deposited data

How the results depend on the processing

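Restricting the class to the 87 genes without overlap lowered the median count from 27 to 15, the median per kb from 1.15 to 0.757, the share at 100 counts or more from 15.1% to 9.20% and rho with length from 0.43 to 0.23. It raised the share of the 10 highest genes in the summed count from 22.5% to 50.4%, and counting per kb made it 61.5%. When at least 50% of the interval had to be covered, 42.6% overlapped another gene instead of 74.3%. A minimum of 10 counts left 270 genes and raised the median from 27 to 38 and the median per kb from 1.15 to 1.24. Keeping the left-out names gave 351 genes, with a median of 27 and 16.8% at 100 counts or more. Leaving out the genes RefSeq now calls protein-coding or snoRNA, a choice made after seeing the data like the rho without overlap, left 315 genes with a median of 25. The median ratio of nested genes was 1.68, against 1.76 at 10 counts or more and 1.62 with protein-coding outer genes. A counting interval does not measure the spread of a median over genes, so no error was set against these shifts. No paired analysis was possible because the counts hold both replicates together, and leaving out a replicate was not run for the same reason. Depth limits genes near 6 counts, whose order is not resolved.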

Other observations

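On chromosome 15, ENSG00000259206 (82710856 to 82726435) and ENSG00000259310 (83087381 to 83102960) have intervals of exactly the same length, 15.58 kb, and the same count of 14. They overlap no listed gene. Whether they are copies that share reads was not tested.

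OR51B5, an olfactory receptor gene on chromosome 11, had 225 counts over 201 kb, nearly all of it shared with the intervals of the fetal and embryonic globin genes HBG2 and HBE1, which both had 242. ELFN2 appears as a pair of identifiers, a processed transcript of 45.7 kb with 140 counts and, inside it, a protein-coding entry with 114.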
